A study of Homo sapiens with 18 samples.

Results

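The BCL2 family of apoptosis regulators was followed through 6 groups of LNCaP libraries. Its 10 members were taken by gene symbol from the deposited expression table of 26443 genes: BCL2, BCL2L1 and MCL1, which keep cells alive, BAX and BAK1, which open the mitochondrial outer membrane, and the BH3-only genes BBC3, PMAIP1, BCL2L11, BID and BAD. All 10 were in the table, and 9 passed a filter of at least 1 RPKM in at least 3 libraries. BCL2 did not pass and is described from its reads.

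LNCaP is an established human prostate cancer line of luminal type, and FOXA1, a pioneer factor, makes closed chromatin accessible to other transcription factors. HIF1A is the oxygen-regulated subunit of the hypoxia-inducible factor. Each of the 6 groups had 3 RNA sequencing libraries, after lentiviral infection for 5 days, and every group, the controls included, was given CoCl2 at 100 µM for the last 24 h to mimic hypoxia chemically. The groups were shFOXA1 with shHIF1A (the double knockdown), shFOXA1 with 40 µM KC7F2 for 24 h, shFOXA1, shHIF1A, the control vector pGIPZ with 40 µM KC7F2 for 24 h, and pGIPZ alone. KC7F2 is a small-molecule inhibitor of HIF1A. No group without CoCl2 was analysed here, so every value is a level under chemical hypoxia. The labels name 1 shRNA per target without its sequence, and leave unsaid whether triplicates came from separate cultures and whether cells given 1 shRNA also received a second vector to match the double knockdown. The p-values therefore cover only the spread among the libraries at hand, which may be technical.

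Depth, recovered from the spacing of the lowest values, ran between 3260000 and 12090000 reads per library, and was lowest in the double knockdown, at 6060000 ± 2610000 reads (SD, n = 3), and in shFOXA1, at 6330000 ± 1280000 reads, against 11090000 ± 680000 reads in pGIPZ. The targets moved with their labels. FOXA1 mRNA averaged 34.1 ± 1.51 RPKM in shFOXA1 and 97.5 ± 22.7 RPKM in pGIPZ, and HIF1A mRNA averaged 3.56 ± 0.642 RPKM in shHIF1A and 23.1 ± 7.91 RPKM in pGIPZ (SD, n = 3 each). HIF1A mRNA was 89.9 ± 8.998 RPKM in shFOXA1, and FOXA1 mRNA was higher in the double knockdown, at 64.5 ± 5.77 RPKM, than in shFOXA1. The 5 luminal markers KLK3, FOLH1, KRT8, KRT18 and EPCAM were at or above 39 RPKM in every library, while PTPRC, CD3E, PECAM1, CDH5, COL1A2, PDGFRB and DCN stayed at or below 0.197 RPKM. Of the same marker lists for other cells, the macrophage marker CD68 had 3.57 to 19.3 RPKM, the fibroblast marker COL1A1 1.64 to 7.28 RPKM and the endothelial marker VWF 0.31 to 2.72 RPKM. The luminal markers were not constant. Their summed level was 656 to 778 RPKM in the double knockdown and 752 to 928 RPKM in shHIF1A. It was 1120 to 1570 RPKM in pGIPZ and 1020 to 1170 RPKM in shFOXA1.

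Apoptosis through mitochondria is decided by the balance within this family. BAX and BAK1 proteins form pores that release cytochrome c, BCL2, BCL-XL (encoded by BCL2L1) and MCL1 hold them in check, and the BH3-only proteins are sensors that free or activate the pore formers. In prostate cancer cells, BCL-XL and MCL1 are known survival factors, and several BH3-only genes are induced by FOXO factors or by stress pathways.

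Changes below are log2 fold changes ± SE of RPKM + 0.5, a scale that understates the change of low genes, from limma fitted to 12900 genes. A gene rose or fell only where its Benjamini-Hochberg adjusted p was below 0.05. In bulk RNA, fewer cells of a kind and less RNA per cell cannot be told apart.

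The HIF1A shRNA changed 5 to 8 members, and the FOXA1 shRNA raised BCL2L11. In shHIF1A against pGIPZ, MCL1, BAX, BAK1, BCL2L11 and BID rose, 5 of the 9 tested members, and none fell, where 42% of all genes were called in either direction, 25.9% higher and 16.1% lower. In the double knockdown against shFOXA1, MCL1, BAX, BAK1, BBC3, PMAIP1 and BID rose and BCL2L11 and BCL2L1 fell, 8 of 9 members, where 37.5% of all genes were called, 24% higher and 13.5% lower. In shFOXA1 against pGIPZ, BCL2L11 rose, 1 of 9 members, and none fell, where 24.1% of all genes were called, 9.52% higher and 14.6% lower. The members' median change was 0.41 in shHIF1A and 0.57 in the double knockdown against shFOXA1, beside medians of 0.07 and 0.10 over all 12900 genes in those 2 comparisons.

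KC7F2 called no member. In pGIPZ with KC7F2 against pGIPZ the smallest adjusted p of a member was 0.384 (limma), 1 member (BID) had an unadjusted p below 0.05, and limma-voom on recovered reads also called 0; 2.04% of all genes were called, 1.05% higher and 0.992% lower. The 95% intervals of the 9 differences lay between -0.65 and 0.75. In shFOXA1 with KC7F2 against shFOXA1 the smallest adjusted p was 0.0813 (limma), for BID, 2 members (BAX and BID) had an unadjusted p below 0.05, and limma-voom again called 0, where 4.08% of all genes were called, 1.71% higher and 2.37% lower. The intervals there lay between -0.78 and 0.55, and MCL1's own interval there ran from -0.13 to 0.29. BAX and BID had lower values in that comparison, at -0.44 ± 0.16 and -0.41 ± 0.12, and were called under 2 and 4 of 18 other settings. Whether KC7F2 lowered HIF1A activity in these libraries was not tested. BNIP3, a known HIF target, averaged 104.3 ± 14.19 RPKM in pGIPZ with KC7F2, 101.8 ± 23.43 RPKM in pGIPZ and 59.96 ± 3.952 RPKM in shHIF1A. It averaged 130.6 ± 3.473 RPKM in shFOXA1 with KC7F2 and 176 ± 3.929 RPKM in shFOXA1 (SD, n = 3 each). BNIP3 was called in neither of these KC7F2 comparisons.

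**Figure D1:**
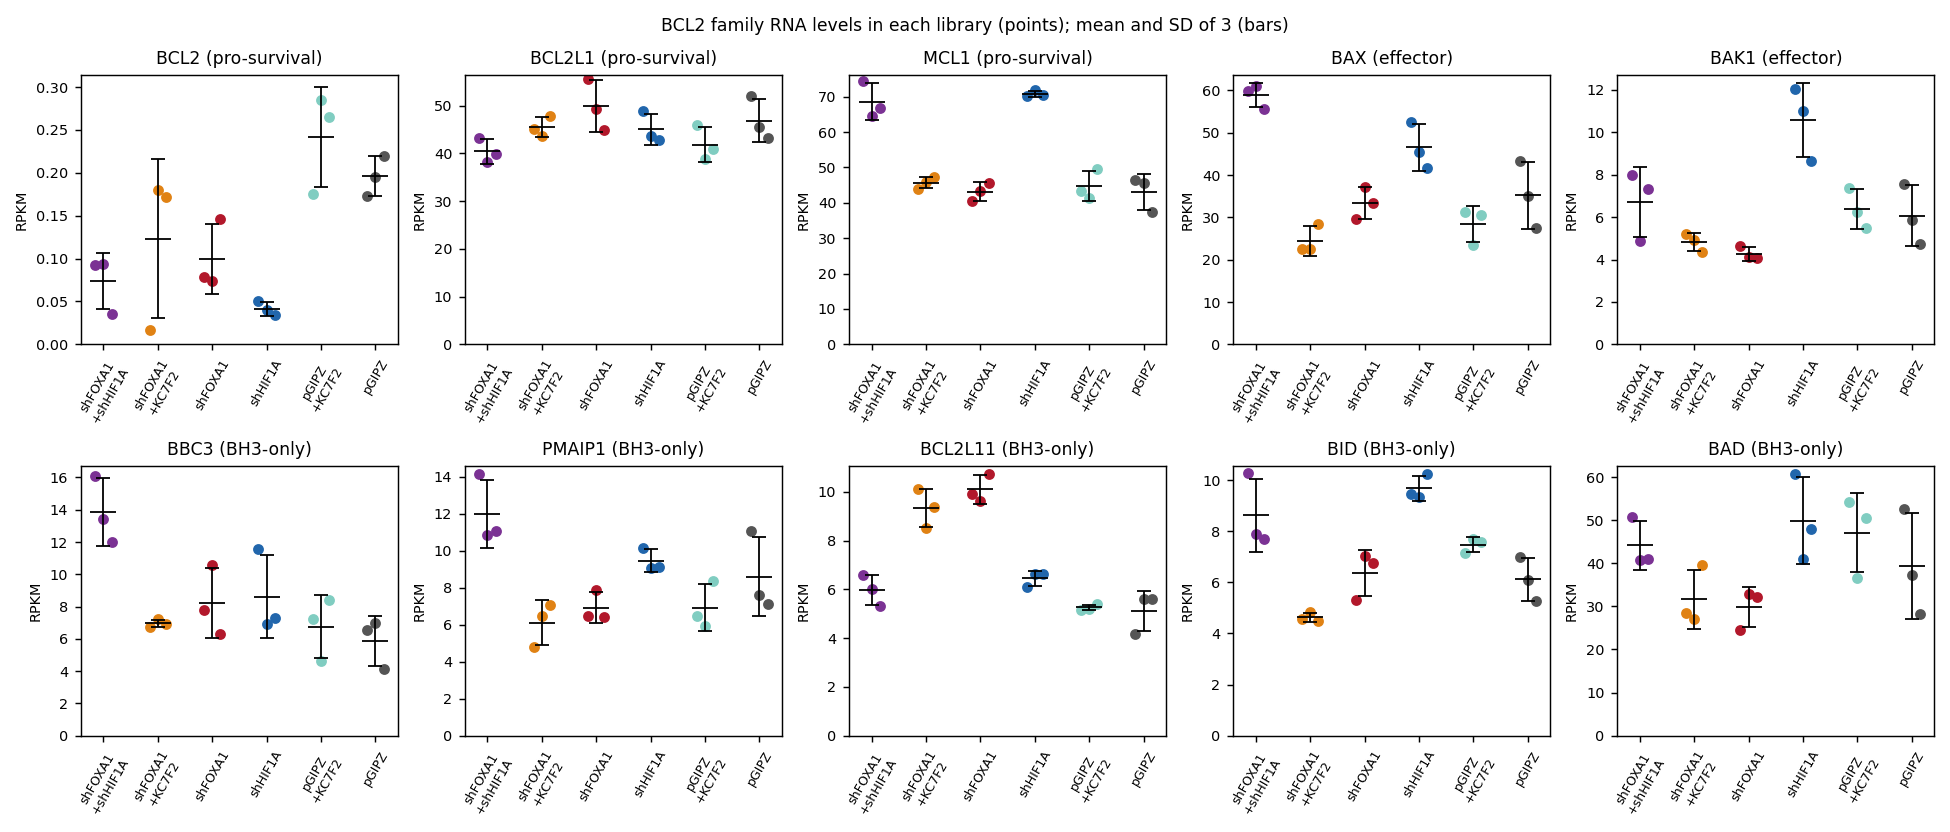
RPKM of each of the 10 members (1 panel each, axis from 0) in every library, with the mean and SD of the 3 libraries of a group. BCL2L11 stands high in the groups with shFOXA1 but without shHIF1A, and MCL1 in both groups with shHIF1A.

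**Figure D2:**
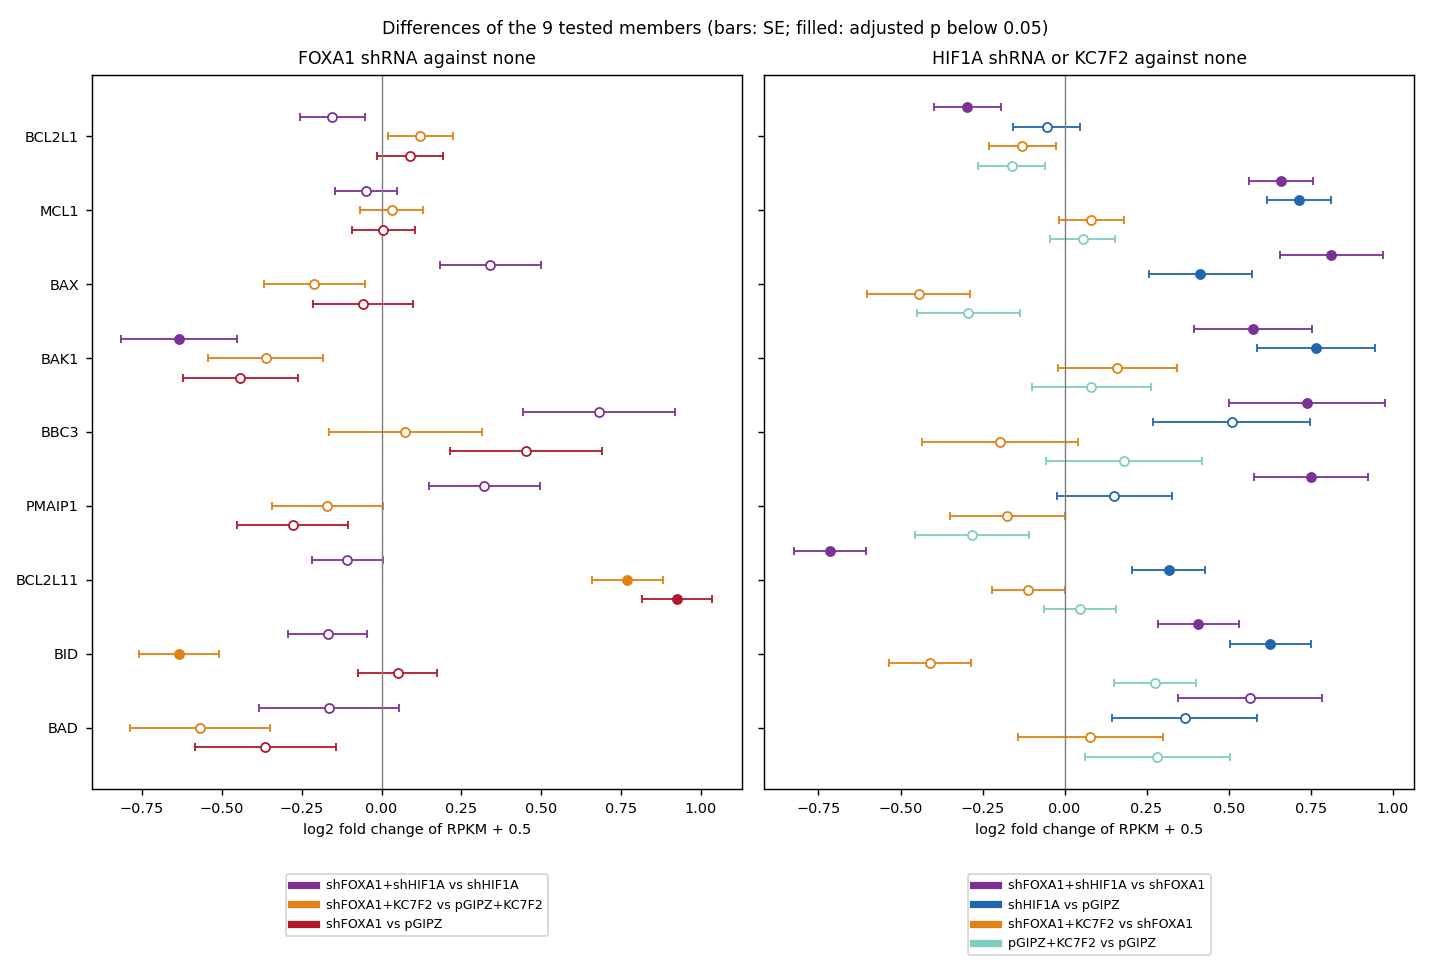
Log2 fold change of RPKM + 0.5 with its SE for the 9 tested members, for the FOXA1 shRNA in 3 backgrounds (left) and for the HIF1A shRNA or KC7F2 in 2 backgrounds (right); filled points have an adjusted p below 0.05. BCL2L11 moves to the right with shFOXA1 alone and with KC7F2 (0.93 and 0.77) but not on top of shHIF1A (-0.11).

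Levels, given in RPKM and so per length, split the family into a high and a low tier. In pGIPZ, BCL2L1 (46.9 ± 4.56), MCL1 (43.2 ± 5.08), BAD (39.4 ± 12.3) and BAX (35.2 ± 7.87) came first, and neighbours in that order overlapped between libraries. PMAIP1 (8.59 ± 2.14), BID (6.12 ± 0.848), BAK1 (6.06 ± 1.44), BBC3 (5.88 ± 1.54) and BCL2L11 (5.12 ± 0.825) made the lower tier (SD, n = 3 each); PMAIP1 lay above BID without overlap, and the others overlapped with their neighbours. In each of the 6 groups the fourth member did not overlap with the fifth, nor the ninth with BCL2. The leading member differed: MCL1 was first in the double knockdown and in shHIF1A, with no overlap with the next gene, while BCL2L1 was first in shFOXA1 and pGIPZ, overlapping with MCL1. MCL1 was also first in shFOXA1 with KC7F2, overlapping with BCL2L1, and BAD was first in pGIPZ with KC7F2, overlapping with MCL1. BCL2L11 was the fifth member in shFOXA1 and in shFOXA1 with KC7F2, and the ninth in the other 4 groups.

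**Figure D3:**
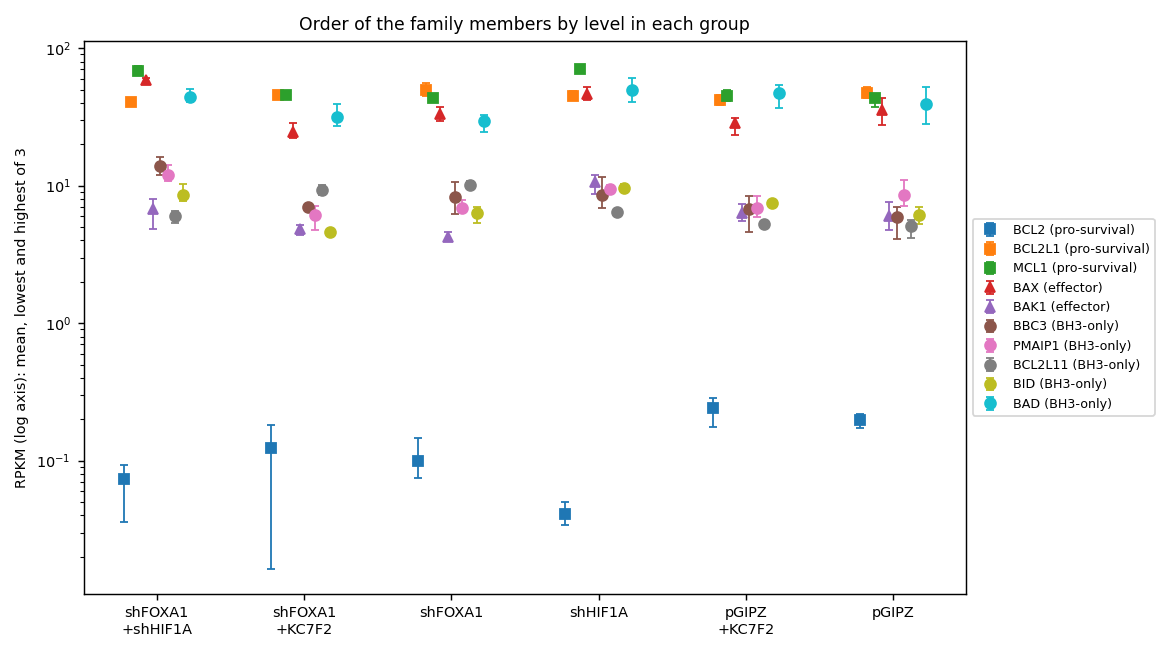
Mean RPKM (log axis) of each member in each group, with the lowest and highest of 3 libraries as bars. MCL1, BCL2L1, BAX and BAD lie at or above 22.4 RPKM in every library and BCL2 at or below 0.285 RPKM.

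BCL2 (chr18:63123346-63320128, hg38, minus strand), the founding survival gene, was close to absent. It had 8 reads in all in the double knockdown, 19 in shFOXA1 with KC7F2, 12 in shFOXA1 and 9 in shHIF1A, against 52 in pGIPZ with KC7F2 and 43 in pGIPZ. Per library this was 2, 4 and 2 reads in the double knockdown, 4, 3 and 5 in shFOXA1 and 4, 3 and 2 in shHIF1A, against 13, 15 and 15 in pGIPZ, so each of these 3 knockdown groups lay below pGIPZ without overlap. The levels averaged 0.0739 ± 0.0330 RPKM in the double knockdown, 0.0996 ± 0.0403 RPKM in shFOXA1 and 0.0413 ± 0.00822 RPKM in shHIF1A, against 0.196 ± 0.0234 RPKM in pGIPZ (SD, n = 3 each), and did not overlap with pGIPZ either. An exact permutation test gave a two-sided p of 0.10 for each of the 3, the smallest that 3 against 3 libraries can give. With no filter on low values, limma called the double knockdown and shHIF1A against pGIPZ (adjusted p = 0.0469 and 0.012) and not shFOXA1 (adjusted p = 0.173). In shFOXA1 with KC7F2 the 3 libraries had 1, 8 and 10 reads, against 14, 21 and 17 reads in pGIPZ with KC7F2, and the exact two-sided p was 0.20. The levels there overlapped (0.0164 to 0.18 RPKM, against 0.175 to 0.285 RPKM).

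MCL1 (chr1:150574551-150579738, minus strand), a short-lived survival protein, was the tested member with the smallest standard error. It had 74.4, 64.5 and 66.7 RPKM in the double knockdown and 70.2, 71.8 and 70.4 RPKM in shHIF1A. The other groups had 44.0, 45.8 and 47.2 in shFOXA1 with KC7F2, 40.4, 43.4 and 45.7 in shFOXA1, 43.2, 41.5 and 49.6 in pGIPZ with KC7F2, and 46.5, 45.7 and 37.3 in pGIPZ. All 6 libraries with the HIF1A shRNA lay above all 12 without it. MCL1 rose by 0.71 ± 0.10 in shHIF1A against pGIPZ (limma adjusted p = 2.63e-05) and by 0.66 ± 0.10 in the double knockdown against shFOXA1 (adjusted p = 6.69e-05). With the FOXA1 shRNA it differed by 0.01 ± 0.10 from pGIPZ (95% interval -0.20 to 0.21), and with KC7F2 by 0.06 ± 0.10 (interval -0.15 to 0.26), which ends below the rise seen with shHIF1A. shHIF1A against pGIPZ with KC7F2, a comparison added after the data were seen, gave 0.66 ± 0.10 (adjusted p = 5.70e-05); 4 of 9 members rose in it and none fell, where 42.6% of all genes were called, 23% higher and 19.6% lower.

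BCL2L1 (chr20:31664452-31723989, minus strand), which encodes the survival protein BCL-XL and its short pro-apoptotic splice form, varied little. Group means ran between 40.4 and 49.9 RPKM. It had 43.3, 38.2 and 39.8 RPKM in the double knockdown, against 55.6, 49.2 and 45.0 RPKM in shFOXA1, without overlap, and fell by 0.30 ± 0.10 (limma adjusted p = 0.0311). That call was lost without shFOXA1 replicate 1 or 2 (adjusted p = 0.151 and 0.0626) and without double-knockdown replicate 2 or 3 (adjusted p = 0.101 and 0.0774), and in a fit of only the groups compared (adjusted p = 0.0554). No other comparison called it. The values join all splice forms, and the antisense gene ABALON shares 1424 exon bases with it but stayed at or below 1.43 RPKM.

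BAX (chr19:48954815-48961798, plus strand), a pore former, was highest in the double knockdown. It had 59.8, 61.1 and 55.6 RPKM there, 52.5, 45.3 and 41.7 RPKM in shHIF1A, 22.4, 22.4 and 28.5 RPKM in shFOXA1 with KC7F2, 29.6, 37.2 and 33.5 RPKM in shFOXA1, 31.2, 23.4 and 30.6 RPKM in pGIPZ with KC7F2, and 43.2, 35.0 and 27.5 RPKM in pGIPZ. The double knockdown overlapped with no other group, while shHIF1A overlapped with pGIPZ. Its difference from shHIF1A, 0.34 ± 0.16, was not called (limma adjusted p = 0.171), but passed under 2 of 18 other settings. BAX rose by 0.81 ± 0.16 in the double knockdown against shFOXA1 (limma adjusted p = 0.000699) and by 0.41 ± 0.16 in shHIF1A against pGIPZ (adjusted p = 0.0446). The second call was lost without pGIPZ replicate 2 or 3 (adjusted p = 0.0815 and 0.209) and without shHIF1A replicate 1 or 2 (adjusted p = 0.165 and 0.0813), and under 4 other settings. Against shFOXA1 with KC7F2, also a comparison added after the data were seen, the double knockdown was higher by 1.26 ± 0.16 (adjusted p = 1.15e-05), the largest change of a member in any of the 12 comparisons; 5 of 9 members rose there and 1 fell, where 36.6% of all genes were called, 23.4% higher and 13.2% lower.

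The stretch before the start of BAX is shown because it held the most matches to the core of the hypoxia response element among the promoters of the 9 matched members. That of BCL2L11 is shown because it held the only match to a forkhead core among them. The 250 bases before each start came from RefSeq (GRCh38.p14), in which 9 of the 10 members were matched, 6 of them with 1 start. These starts differ from the GENCODE gene spans given in this report. The BCL2L11 stretch lies wholly inside its GENCODE span, and the BAX stretch runs past the first base of its span. MCL1 was not matched, so its promoter was not searched. The motifs searched on both strands were ACGTG and GCGTG for the hypoxia core and TGTTTAC and TGTTTGC for the forkhead core, and capitals mark matches on either strand.
BAX, chr19:48954625-48954874, plus strand: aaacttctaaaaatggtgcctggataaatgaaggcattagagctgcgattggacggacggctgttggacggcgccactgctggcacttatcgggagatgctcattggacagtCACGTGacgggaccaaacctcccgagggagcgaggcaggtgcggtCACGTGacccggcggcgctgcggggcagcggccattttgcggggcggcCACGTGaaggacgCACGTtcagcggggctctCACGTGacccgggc
BCL2L11, chr2:111120664-111120913, plus strand: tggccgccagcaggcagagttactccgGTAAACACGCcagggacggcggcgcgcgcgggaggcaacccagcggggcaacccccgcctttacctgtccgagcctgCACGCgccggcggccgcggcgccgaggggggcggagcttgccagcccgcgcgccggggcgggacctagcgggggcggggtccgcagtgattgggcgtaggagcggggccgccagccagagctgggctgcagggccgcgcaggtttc
The BAX stretch held 9 hypoxia core matches, 8 of them from 4 copies of the palindrome CACGTG, which reads the same on both strands and so counts on each. Of 35116 promoters, 18.5% held ACGTG, 32.2% held GCGTG and 43.2% held either. In BCL2L11 the forkhead match GTAAACA, the reverse complement of TGTTTAC, lay 223 to 217 bases before the RefSeq start and shared 2 bases with a CACGC match. TGTTTAC was in 2.98% of all promoters and either forkhead core in 6.09%. At least 1 hypoxia core was also found for BBC3, PMAIP1, BCL2L1, BID and BAD, and none for BCL2 and BAK1. BCL2L1, BID and BAD had more than 1 start and so more than 1 stretch to match, whereas the 43.2% is per stretch. For BCL2L1 and BID, not every stretch held a match. These matches are letters in a window, and neither binding of FOXA1 nor of HIF1A was measured here.

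BAK1 (chr6:33572547-33580293, minus strand), the other pore former, rose with the HIF1A shRNA and had its lowest mean in shFOXA1. It had 12.04, 11.02 and 8.67 RPKM in shHIF1A, against 7.59, 5.87 and 4.73 RPKM in pGIPZ, without overlap, a rise of 0.77 ± 0.18 (limma adjusted p = 0.00288). In shFOXA1 it had 4.62, 4.11 and 4.06 RPKM, all below pGIPZ, a difference of -0.44 ± 0.18 that did not pass (adjusted p = 0.089). It passed without pGIPZ replicate 3 (adjusted p = 0.0271). In the double knockdown it had 7.98, 4.86 and 7.30 RPKM, above shFOXA1 by 0.57 ± 0.18 (adjusted p = 0.0203) and it fell by 0.63 ± 0.18 against shHIF1A (adjusted p = 0.0265). The KC7F2 groups had 5.21, 4.91 and 4.37 RPKM in shFOXA1 with KC7F2 and 7.40, 6.23 and 5.50 RPKM in pGIPZ with KC7F2. BAK1 was the 1 member called in the double knockdown against shHIF1A, where 14.5% of all genes were called, 5.27% higher and 9.25% lower. The rise was lost without shFOXA1 replicate 2 or 3 (adjusted p = 0.0555 and 0.0602) or double-knockdown replicate 1 or 3 (adjusted p = 0.0985 and 0.0739), in a fit of only the groups compared (adjusted p = 0.057) and by limma-voom (adjusted p = 0.0705). The fall was lost without shHIF1A replicate 1 or 2 (adjusted p = 0.118 and 0.0909) or double-knockdown replicate 2 (adjusted p = 0.14), and in a fit of only the groups compared (adjusted p = 0.109). BAK1 has 2 processed pseudogenes, BAK1P1 on chromosome 20 and BAK1P2 on chromosome 11, so some reads may be shared with them.

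BCL2L11 (chr2:111119378-111168447, plus strand) encodes BIM, a BH3-only protein that binds all survival members and is a textbook target of FOXO factors. It had 9.93, 9.62 and 10.7 RPKM in shFOXA1, against 4.17, 5.60 and 5.59 RPKM in pGIPZ. With KC7F2 it had 10.1, 8.51 and 9.39 RPKM in shFOXA1, against 5.17, 5.21 and 5.40 RPKM in pGIPZ. On top of the HIF1A shRNA it had 6.57, 6.01 and 5.33 RPKM in the double knockdown, against 6.10, 6.64 and 6.63 RPKM in shHIF1A. The 6 libraries with shFOXA1 and no shHIF1A lay above the other 12 without overlap.

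BCL2L11 rose by 0.93 ± 0.11 in shFOXA1 against pGIPZ (limma adjusted p = 1.11e-05), a fold of 1.90. It rose by 0.77 ± 0.11 in shFOXA1 with KC7F2 against pGIPZ with KC7F2 (adjusted p = 7.76e-05), where BID fell and 32.9% of all genes were called, 8.88% higher and 24.1% lower. In the double knockdown against shHIF1A it differed by -0.11 ± 0.11 (adjusted p = 0.592, 95% interval -0.34 to 0.13). The difference between the effect of the FOXA1 shRNA with and without shHIF1A was itself tested: the interaction was -1.03 ± 0.16 (adjusted p = 0.000498), the only member called in it, where 7.61% of all genes were called, 3.16% upward and 4.45% downward. It was called under all 24 other settings, at -1.13 to -0.90. The interaction with KC7F2 was -0.16 ± 0.16 (adjusted p = 0.928, interval -0.49 to 0.18); it called 0 members, with 1 (BID) at an unadjusted p below 0.05, 0 by limma-voom, and 0.0775% of all genes (0.0155% upward and 0.062% downward). Against shFOXA1, the double knockdown was lower by a log2 change of -0.71 ± 0.11 (adjusted p = 9.61e-05).

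FOXA1 mRNA itself was 64.5 RPKM in the double knockdown and 34.1 RPKM in shFOXA1, so FOXA1 was lowered less in the group where BCL2L11 was not called higher, and the part of this in the result was not tested. The macrophage marker CD68 also moved with the FOXA1 shRNA: the summed level of the 3 leukocyte markers was 18.1 to 19.3 RPKM in shFOXA1, 11.5 to 13.3 RPKM in shFOXA1 with KC7F2 and 9.59 to 11.2 RPKM in the double knockdown, against 5.44 to 7.68 RPKM in pGIPZ. PTPRC and CD3E, the other 2 of those markers, had a median of 0. In shHIF1A against pGIPZ, BCL2L11 rose by a smaller 0.32 ± 0.11 (adjusted p = 0.0297), which was lost without pGIPZ replicate 1 (0.19, adjusted p = 0.158) and without shHIF1A replicate 2 or 3 (adjusted p = 0.0842 and 0.0784), and under 5 other settings. The lincRNA MIR4435-2HG overlaps BCL2L11 on the other strand by 727 exon bases and stayed at or below 2.23 RPKM.

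Of the 7 tested transcription factors in a list of regulators of BH3-only genes, 3 rose and 2 fell in shFOXA1 against pGIPZ, where 24.1% of all genes were called. JUN, a stress-activated factor, rose by 0.98 ± 0.12 (limma adjusted p = 2.07e-05), and E2F1, a cell cycle factor, fell by 1.38 ± 0.15 (adjusted p = 4.01e-06). DDIT3 fell by 0.62 ± 0.205 (adjusted p = 0.0369). In shFOXA1 with KC7F2 against shFOXA1, DDIT3 rose by 1.00 ± 0.205 (adjusted p = 0.00938). FOXO3, a FOXO factor, also rose and had a called interaction with shHIF1A; whether it has a part in the values of BCL2L11 was not tested. FOXO3 averaged 33.5 ± 2.00 RPKM in shFOXA1 and 12.4 ± 1.70 RPKM in pGIPZ, 30.02 ± 1.15 RPKM in shFOXA1 with KC7F2 and 11.7 ± 0.841 RPKM in pGIPZ with KC7F2, and 13.0 ± 1.08 RPKM in the double knockdown and 11.5 ± 0.512 RPKM in shHIF1A (SD, n = 3 each). It rose by 1.41 ± 0.10 in shFOXA1 (limma adjusted p = 2.92e-08) and its interaction with shHIF1A was -1.24 ± 0.14 (adjusted p = 3.58e-05). BMF, another BH3-only gene, averaged 11.3 ± 0.156 RPKM in the double knockdown and 7.43 ± 0.755 RPKM in shHIF1A, and rose in that comparison by 0.58 ± 0.09 (adjusted p = 0.000437) as well as in shFOXA1, by 0.96 ± 0.09 (adjusted p = 8.17e-07). In shHIF1A against pGIPZ, BMF rose by 0.56 ± 0.09 (limma adjusted p = 0.000133). With KC7F2 it rose too, by 0.41 ± 0.09 in pGIPZ and by 0.39 ± 0.09 in shFOXA1 (limma adjusted p = 0.0257 and 0.0239).

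BBC3 (chr19:47220822-47232766, minus strand), which encodes PUMA, and PMAIP1 (chr18:59899948-59904306, plus strand), which encodes NOXA, are stress-induced BH3-only genes, and NOXA is known to bind MCL1. Both were highest in the double knockdown. BBC3 had 16.1, 13.4 and 12.01 RPKM there, 11.6, 6.94 and 7.30 RPKM in shHIF1A and 7.81, 10.6 and 6.28 RPKM in shFOXA1, against 6.55, 6.96 and 4.12 RPKM in pGIPZ. With KC7F2 it had 6.75, 7.20 and 6.92 RPKM in shFOXA1 and 7.23, 4.64 and 8.42 RPKM in pGIPZ. The double knockdown overlapped with no other group, and shHIF1A, shFOXA1 and pGIPZ overlapped with each other. Between the double knockdown and shHIF1A, the BBC3 difference of 0.68 ± 0.24 was not called (limma adjusted p = 0.0679). That difference passed under 5 of 18 other settings. BBC3 rose by 0.74 ± 0.24 in the double knockdown against shFOXA1 (limma adjusted p = 0.0228), a call lost without shFOXA1 replicate 1 or 3 (adjusted p = 0.0594 and 0.106) or double-knockdown replicate 1 (adjusted p = 0.09). Against pGIPZ, in a comparison added after the data were seen, the double knockdown was higher by 1.19 ± 0.24 (adjusted p = 0.000773). There, MCL1, BAX, BBC3, PMAIP1 and BID rose, 5 of 9 members, and none fell, where 42.1% of all genes were called, 22.6% higher and 19.5% lower.

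PMAIP1 had 14.1, 10.8 and 11.03 RPKM in the double knockdown and 10.2, 9.04 and 9.12 RPKM in shHIF1A. It had 6.44, 7.87 and 6.39 RPKM in shFOXA1, against 11.1, 7.63 and 7.11 RPKM in pGIPZ. With KC7F2 it had 4.77, 6.48 and 7.07 RPKM in shFOXA1 and 6.45, 5.95 and 8.37 RPKM in pGIPZ. It rose by 0.75 ± 0.17 in the double knockdown against shFOXA1 (limma adjusted p = 0.00281), without overlap. Between the double knockdown and shHIF1A, the PMAIP1 difference of 0.32 ± 0.17 was not called (adjusted p = 0.25). In the double knockdown against pGIPZ, PMAIP1 rose by 0.47 ± 0.17 (adjusted p = 0.0379), with overlap. That call was lost without pGIPZ replicate 2 or 3 (adjusted p = 0.121 and 0.141) or double-knockdown replicate 1 (adjusted p = 0.154), and under 3 other settings (no filter on low values, only the groups compared, and the replicate block). In shHIF1A alone, neither BBC3 (0.51 ± 0.24, adjusted p = 0.0998) nor PMAIP1 (0.15 ± 0.17, adjusted p = 0.519) passed, but with the length and GC trend removed PMAIP1 was called higher, by 0.44 (adjusted p = 0.00974). The interactions of the 2 shRNAs were not called for either (0.23 ± 0.34 and 0.60 ± 0.25, adjusted p = 0.745 and 0.167).

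BID (chr22:17734138-17774770, minus strand), which links death receptors to mitochondria once caspase-8 has cut it, rose with the HIF1A shRNA. It had 10.3, 7.89 and 7.72 RPKM in the double knockdown and 9.46, 9.35 and 10.2 RPKM in shHIF1A, and 4.58, 4.83 and 4.504 RPKM in shFOXA1 with KC7F2. The remaining groups had 5.32, 7.02 and 6.76 RPKM in shFOXA1, 7.15, 7.71 and 7.56 RPKM in pGIPZ with KC7F2, and 6.98, 6.10 and 5.29 RPKM in pGIPZ. The libraries of shFOXA1 with KC7F2 were the 3 lowest of 18. BID rose by 0.63 ± 0.12 in shHIF1A against pGIPZ (limma adjusted p = 0.000712) and by 0.41 ± 0.12 in the double knockdown against shFOXA1 (adjusted p = 0.0162), the second lost without shFOXA1 replicate 1 (adjusted p = 0.0939) or double-knockdown replicate 1 (adjusted p = 0.092), and under median-ratio scaling, in a fit of only the groups compared and by limma-voom (adjusted p = 0.054, 0.0873 and 0.0526). It fell by 0.63 ± 0.12 in shFOXA1 with KC7F2 against pGIPZ with KC7F2 (adjusted p = 0.00107), while in shFOXA1 against pGIPZ it differed by 0.05 ± 0.12 (adjusted p = 0.804). The test of that difference, the interaction with KC7F2, was -0.69 ± 0.17 and did not pass (adjusted p = 0.197).

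BAD (chr11:64269830-64284704, minus strand), a BH3-only protein held inactive by AKT phosphorylation and 14-3-3 proteins, was called in no comparison. It had 50.7, 40.9 and 40.9 RPKM in the double knockdown, against 24.4, 32.8 and 32.1 RPKM in shFOXA1, without overlap, a difference of 0.57 ± 0.22 (limma adjusted p = 0.0536). That difference passed under 6 of 18 other settings, the length and GC correction among them. It had 60.8, 40.9 and 48.1 RPKM in shHIF1A, against 52.5, 37.4 and 28.2 RPKM in pGIPZ, with overlap, a difference of 0.37 ± 0.22 (adjusted p = 0.2). Without pGIPZ replicate 1 that difference was 0.59 and passed (adjusted p = 0.0388). With KC7F2 it had 28.4, 27.0 and 39.5 RPKM in shFOXA1 and 54.2, 36.7 and 50.5 RPKM in pGIPZ, with overlap. The difference between these 2 groups, -0.57 ± 0.22, was not called (limma adjusted p = 0.0574), but passed under 4 of 18 other settings. BAD's counted length, 1224 nt, is the shortest of the members, and pGIPZ replicate 1 and pGIPZ with KC7F2 replicates 1 and 3 carried more signal in short genes (short minus long genes 0.43, 0.39 and 0.29 on the log2 scale) than the other 15 libraries (-0.16 to 0.15). With these 3 libraries left out, BAD was called higher in shHIF1A against pGIPZ, by 0.59 (limma adjusted p = 0.0338). It was also called in the double knockdown against shFOXA1 (adjusted p = 0.0242), but none of the 3 libraries belongs to those groups. The difference there stayed at 0.57, and only its SE, which all groups share in estimating, went from 0.22 to 0.18. GPR137 overlaps BAD by 404 exon bases on the other strand, at 15.5 ± 0.847 RPKM in shFOXA1 and 21.2 ± 3.00 RPKM in pGIPZ, and since strand handling is not given, reads from the pair cannot be told apart.

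Across the 18 libraries, BAX and PMAIP1 were the members most alike (Pearson r = 0.91 of log2 values), followed by MCL1 and BAX (r = 0.82), MCL1 and BID (r = 0.77) and MCL1 and PMAIP1 (r = 0.76). BCL2L11 ran the other way to BAD (r = -0.63), BAK1 (r = -0.53) and PMAIP1 (r = -0.48). These r are descriptions over libraries that share 6 group means. Over all tested genes, those most like BAX were FDXR and RPS27L (r = 0.94 each) and TRIP10 (r = 0.93), those most like BBC3 were IER2 (r = 0.90), CLDN4 and GADD45A (r = 0.89 each), and those most like PMAIP1 were AP1S3, IFNAR2 and S100A10 (r = 0.93, 0.92 and 0.92). MCL1 was most like CCDC71L, SPINT1 and OSTM1 (r = 0.97 each), BCL2L11 most like IRX5, ANKRD13A and PXN (r = 0.95, 0.95 and 0.95), BAK1 most like YTHDF1, CCDC115 and HSD3B7 (r = 0.96, 0.95 and 0.95) and BID most like H2AFY2, ADA and ARMC9 (r = 0.94, 0.93 and 0.92). BAD was most like GUK1, SDF4 and RHOD (r = 0.95, 0.94 and 0.94), and BCL2L1 most like NDUFA4L2, MMP7 and NDRG1 (r = 0.79, 0.73 and 0.73).

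Further genes of the wider family moved in both arms. Of 8 tested genes among 10 further effector, BH3-only or related genes, 4 rose and 2 fell in the double knockdown against shFOXA1, where 24% of all genes were higher and 13.5% lower. BNIP3, a known HIF target in mitophagy, averaged 58.3 ± 9.65 RPKM in the double knockdown and 176 ± 3.93 RPKM in shFOXA1, and fell by 1.60 ± 0.15 (limma adjusted p = 3.88e-07), while its relative BNIP3L fell by 0.60 ± 0.11 (adjusted p = 0.000276). Both had risen in shFOXA1 against pGIPZ, by 0.81 ± 0.15 and 0.39 ± 0.11 (adjusted p = 0.000617 and 0.0131), where 3 of the 8 rose and BCL2L12 fell, beside 9.52% of all genes higher and 14.6% lower. Of the 3 further survival genes only BCL2L2 was tested, and it rose in the double knockdown against shFOXA1, by 0.56 ± 0.13 (adjusted p = 0.00251).

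Around the mitochondrial step, 3 lists each held genes that rose and genes that fell in shHIF1A against pGIPZ, where 42% of all genes were called, 25.9% higher and 16.1% lower. Of 7 genes of the apoptosome and caspases, 1 rose and 1 fell, a smaller share than over all genes. CASP6, a caspase that acts late in apoptosis, averaged 6.51 ± 0.710 RPKM in shHIF1A and 4.22 ± 0.932 RPKM in pGIPZ and rose by 0.58 ± 0.14 (limma adjusted p = 0.00352). APAF1, the scaffold of the apoptosome, averaged 0.990 ± 0.170 RPKM in shHIF1A and 1.51 ± 0.108 RPKM in pGIPZ and fell by 0.44 ± 0.15 (adjusted p = 0.0274). Of 6 inhibitors of apoptosis and their antagonists, 3 rose and 1 fell. BIRC3 rose by 2.12 ± 0.09 (adjusted p = 1.70e-10), BIRC2 by 0.81 ± 0.10 (adjusted p = 9.51e-06) and the antagonist DIABLO by 0.42 ± 0.15 (adjusted p = 0.0318). XIAP, which blocks caspases directly, fell by 1.99 ± 0.14 (adjusted p = 2.00e-08), to 3.49 ± 0.217 RPKM against 15.5 ± 3.46 RPKM in pGIPZ. Of 6 outer membrane partners, 4 fell and 1 rose: VDAC3, VDAC2 and VDAC1, channel proteins, fell by 0.69, 0.52 and 0.26, and the ubiquitin ligase gene MARCH5 rose by 0.26 ± 0.08 (adjusted p = 0.0118).

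Upstream of BID, 5 of 11 death receptor genes rose in shFOXA1 against pGIPZ and none fell, where 24.1% of all genes were called and 9.52% were higher. TNFSF10, which encodes the ligand TRAIL, averaged 2.95 ± 0.851 RPKM in shFOXA1 and 0.376 ± 0.258 RPKM in pGIPZ, a rise of 1.99 ± 0.26 (limma adjusted p = 3.13e-05), and CASP10 rose by 0.94 ± 0.18 (adjusted p = 0.00088). In shHIF1A, 4 of the 11 rose and none fell, beside 42% of all genes called and 25.9% higher, led by the TRAIL receptor gene TNFRSF10B at 0.89 ± 0.08 (adjusted p = 2.55e-07). CFLAR rose in both comparisons, by 0.58 ± 0.11 in shFOXA1 and by 0.78 ± 0.11 in shHIF1A (limma adjusted p = 0.00116 and 3.93e-05). Of 15 kinases, 14-3-3 proteins and ubiquitin enzymes, the 14-3-3 gene SFN rose most in shFOXA1, by 2.90 ± 0.21 (adjusted p = 3.54e-08); 2 of the 15 rose and 1 fell there, a share close to the 24.1% of all genes called.

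A list of DNA damage and stress response genes outside the family had the most calls of the 9 lists in shHIF1A and in the double knockdown. It was also the longest of these lists, so this order by number of calls is not an order by share. In shHIF1A against pGIPZ, 16 of 19 tested rose and 1 fell, with a median change of 0.79, and in the double knockdown against shFOXA1, 15 rose and none fell, with a median of 0.89, beside 0.07 and 0.10 over all genes. Of all genes, 25.9% were higher in the first of these comparisons and 24% in the second. CDKN1A, the cell cycle inhibitor p21, averaged 1189 ± 130.1 RPKM in the double knockdown and 365.7 ± 10.7 RPKM in shFOXA1 (limma adjusted p = 1.24e-08). In shFOXA1 with KC7F2 against shFOXA1, none of the 19 rose and 5 fell, where 1.71% of all genes were higher and 2.37% lower, among them BTG2 by 0.63 ± 0.08 (adjusted p = 0.00033) and MDM2 by 0.49 ± 0.09 (adjusted p = 0.00451). COL1A1, the only fibroblast marker of 4 to reach 1 RPKM, moved with shHIF1A too: the summed fibroblast markers were 6.07 to 7.45 RPKM in shHIF1A and 1.90 to 2.65 RPKM in pGIPZ, and the endothelial sum, which is nearly all VWF, was 2.11 to 2.72 RPKM in shHIF1A and 0.548 to 0.794 RPKM in pGIPZ. The summed luminal markers were lower in both groups with shHIF1A than in pGIPZ. The part of these markers in the results was not tested.

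**Figure D4:**
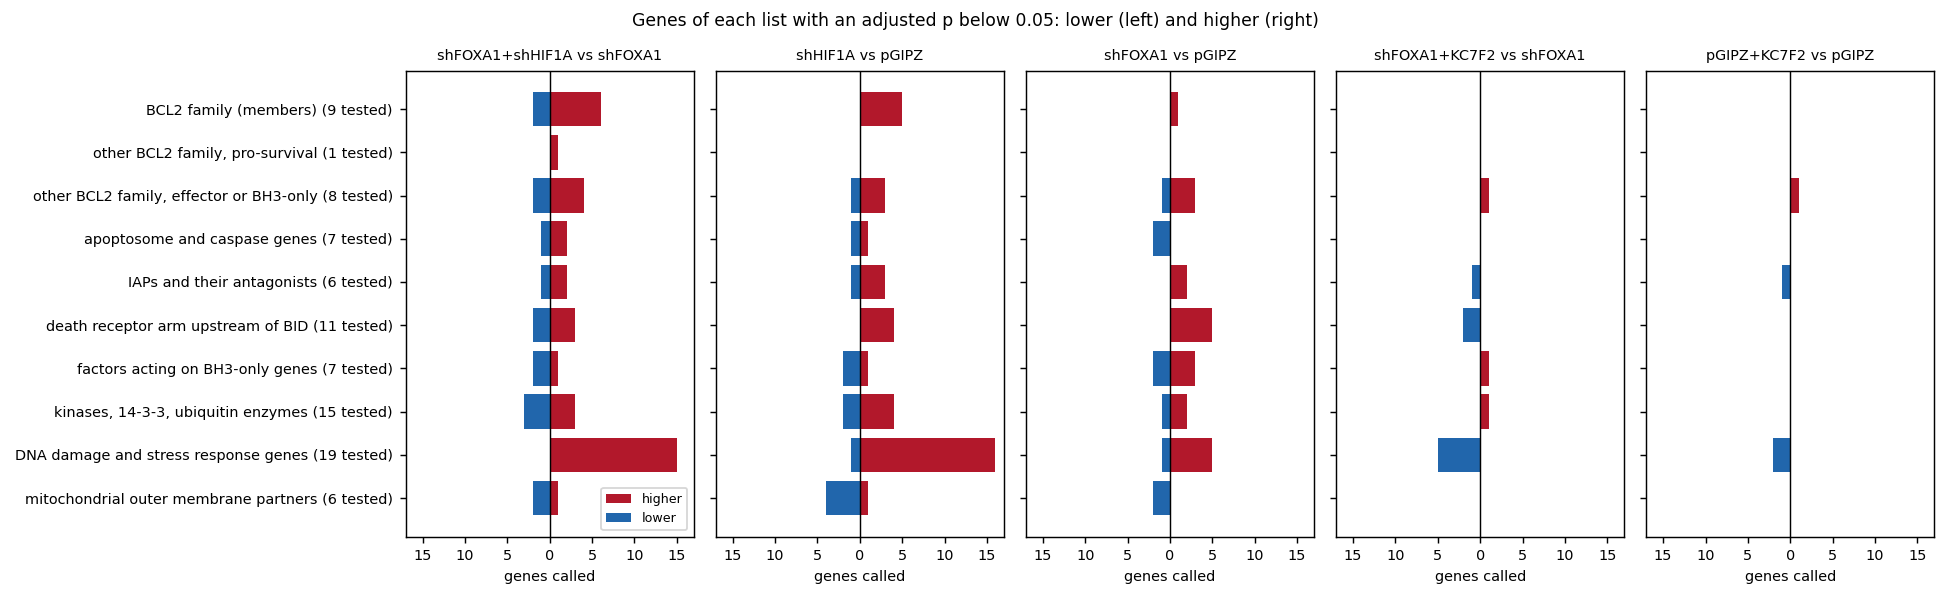
Number of genes with an adjusted p below 0.05 in each list, lower to the left and higher to the right, in 5 comparisons. The DNA damage and stress response genes had 15 and 16 genes higher in the 2 comparisons of the HIF1A shRNA, and no list exceeded 5 calls with KC7F2.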

How the data were processed

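RNA was measured by sequencing in 18 LNCaP libraries. The authors deposited RPKM values, and the submitters' processing notes name STAR and the build hg38. How reads were counted, on which annotation and with what use of strand is not given in the sources used here. Of 26475 lines, 32 without values were left out.

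The members and gene lists were chosen with earlier results of these data known. The scale was log2 of RPKM plus 0.5, and 12900 genes reached 1 RPKM in 3 or more libraries. All 6 groups entered a single limma fit (version 3.58.1, R 4.3.3; residual degrees of freedom 12, intensity trend, two-sided), with Benjamini-Hochberg adjustment within each of 12 comparisons, 3 of them added after the data were seen. The comparisons share libraries. BCL2 was tested with an exact permutation test. Named were all members, FOXA1 and HIF1A, up to 4 genes per list and comparison by smallest adjusted p, and the 3 genes most like each tested member. The text prints part of the listed genes, and some genes of the lists and markers are not reported here. TNFSF10 and FOXO3 fall within that rule.

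Library depth was read from the lowest steps of genes of up to 200 nt, and with it whole reads were recovered for 12894 of 12900 genes (99.95%), within a root mean square distance of 0.002 reads. A tested member rested on 46 to 3452 reads per library, BCL2 on 1 to 21. limma-voom on these reads was an added alternative, which called 6 members of 9 in the double knockdown against shFOXA1. Deviations from the group means had a median r of -0.008 between same-numbered libraries of different groups, with 9 of 45 pairs above 0.1. Between differently numbered libraries the median r was 0.0035, with 9 of 90 pairs above 0.1. Whether the numbers pair the libraries is not given. Gene positions came from GENCODE 29 and promoters from RefSeq. The fit was tested on simulated data. Other settings are listed with the results they change. Python 3.11.15, numpy 2.4.6, pandas 2.3.3 and matplotlib 3.10.9 were used for annotation and figures.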

Additional observations from a re-analysis of the deposited data

Results flagged for a closer look

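BCL2L11 (BIM) was marked because the effect of the FOXA1 shRNA differed between backgrounds in a test of the difference itself. The FOXA1 shRNA raised it by 0.93 against pGIPZ and changed it by -0.11 on top of shHIF1A, and the interaction was -1.03 (limma adjusted p = 0.000498). Its 3 libraries had 5.33 to 6.57 RPKM in the double knockdown and 6.10 to 6.64 RPKM in shHIF1A, and 9.62 to 10.7 RPKM in shFOXA1 and 4.17 to 5.60 RPKM in pGIPZ.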

How the results depend on the processing

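Of 33 called differences of single members over 12 comparisons, 23 stayed called under every alternative run, 10 were lost under at least 1, and 0 changed sign. Of 75 differences not called, 20 passed under at least 1 alternative. The number of members called moved by more than 1.5 times as follows, and the cause was not tested. In shFOXA1 against pGIPZ, with 1 called, quantile normalisation, the replicate number as a block and the length and GC correction each gave 2, and leaving out 1 library gave 1 to 2 (2 without pGIPZ replicate 3). In shHIF1A against pGIPZ, with 5 called, median-ratio scaling and a fit of only the groups compared gave 3, and leaving out 1 library gave 3 (without shHIF1A replicate 2) to 5. In pGIPZ with KC7F2 against pGIPZ the length and GC correction gave 1 in place of 0. In the double knockdown against shFOXA1, with 8 called, leaving out 1 library gave 5 (without shFOXA1 replicate 1 or double-knockdown replicate 1) to 7. In shFOXA1 with KC7F2 against shFOXA1, with 0 called, median-ratio scaling gave 1, quantile normalisation and the length and GC correction gave 2, and leaving out 1 library gave 0 to 1 (1 without shFOXA1 replicate 1). In the double knockdown against shHIF1A, with 1 called, median-ratio scaling and limma-voom gave 2, quantile normalisation and the length and GC correction gave 3, a fit of only the groups compared gave 0, and leaving out 1 library gave 0 (without shHIF1A replicate 2 or double-knockdown replicate 2) to 1. In shFOXA1 with KC7F2 against pGIPZ with KC7F2, with 2 called, quantile normalisation gave 4. In the double knockdown against pGIPZ, with 5 called, a fit of only the groups compared gave 3.

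The replicate block uses numbers that the labels do not describe as a pairing. BAK1 was highest in replicate 1 of each of the 6 groups. The block called BAK1 lower in shFOXA1 against pGIPZ (limma adjusted p = 0.0323), with an SE of 0.14 against 0.18 in the main fit. Also called were BAD higher in the double knockdown against shFOXA1 (adjusted p = 0.0493) and BCL2L1 lower in the double knockdown against pGIPZ (adjusted p = 0.0466). BAK1 was called higher in the double knockdown against shFOXA1 with KC7F2 (adjusted p = 0.0319). The block lost BAX in shHIF1A against pGIPZ (adjusted p = 0.0528) and PMAIP1 in the double knockdown against pGIPZ (adjusted p = 0.05003). Median-ratio scaling moved the median of all genes by -0.117 in the double knockdown against shFOXA1 and by 0.163 in shFOXA1 with KC7F2 against pGIPZ with KC7F2. Leaving out a library leaves 2 in its group. Depth limits BCL2, where 1 to 21 reads stand behind each value.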
